A study of Mus musculus with 165 samples.

Results

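The liver of male mice of the C57BL/6J/Ukj line, an inbred laboratory strain, was compared between 9 and 3 months of age. Members were the liver libraries labelled 3 months (16) and 9 months (16), 32 of the 165 libraries of the series and of its 83 livers. The labels name no genotype beyond the strain, no allele and no treatment for either group, and say that the mice were housed for ageing alone. The series also holds livers of 15, 24 and 28 months and brains that carry the same ages and mouse numbers. Library preparation had been done in 3 rounds (prep 1, 2 and 3), each with livers of both ages, and age was compared with prep as a further term.

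The adult mouse liver is made mostly of hepatocytes, which secrete plasma proteins, dispose of lipids, bile acids and foreign compounds, and differ along the lobule between a periportal and a pericentral zone. Between them lie sinusoidal endothelial cells, stellate cells, Kupffer macrophages and lymphocytes. In males, growth hormone pulses set the level of many hepatocyte genes. The interval from 3 to 9 months runs from young adulthood to early middle age in this species.

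Polyadenylated RNA was counted per gene. Libraries held 22.8 to 45.1 M counts at 3 months (median 31.2) and 23.8 to 57.5 M at 9 months (median 31.9). Levels are given as CPM, reads of a gene relative to the scaled library total. The hepatocyte gene Alb, serum albumin, was at 38215 CPM or more in every library, and the neuronal gene Snap25 at most at 0.0408 CPM. Summed markers of Kupffer cells had medians of 787 and 834 CPM at 3 and 9 months, those of sinusoidal endothelium 942 and 886, those of stellate cells 532 and 543 and those of T and NK cells 19.5 and 21.9, those of monocyte-derived macrophages 131 and 161, those of neutrophils 5.89 and 8.14 and those of red cells 210 and 263, all with overlapping ranges. In bulk tissue, fewer cells of a type and less RNA per cell cannot be told apart.

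In all, 6 libraries stood apart by their sample quality weights, 5 of 3 months and 1 of 9 months. Replicates 10, 13, 15 and 16 of the 3-month group, which came from all 3 preps, had weights of 0.253 to 0.352, against 0.618 or more in the 26 libraries that were not among the 6 lowest. Their totals were not low (31.4 M to 45.1 M). Pancreatic acinar markers summed to 3.49 to 9.51 CPM in these 4 livers, with a 3-month median of 0.475 and a highest 9-month value of 18.0, and Prss2, an acinar trypsinogen, reached at most 2.47 CPM in any library. Summed red cell markers lay at 149 to 171 CPM in the 4, against a median of 210 at 3 months. Adipose markers summed to at most 7.89 CPM, a value held by 1 of the 4, with a 3-month median of 0.095 and at most 1.05 CPM at 9 months. The 9-month library was replicate 13, with a weight of 0.281 and Actg1, cytoplasmic gamma-actin, at 246 CPM, against at most 66.3 CPM in the other 9-month livers and 471 to 795 CPM in the 4. The remaining library was 3-month replicate 12 (weight 0.236), with the highest sums of the 32 for Kupffer (2134 CPM), T and NK cell (107 CPM) and neutrophil (36.5 CPM) markers. The part of these features in the results below was not tested, and results that rest on these livers are given with and without them.

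The first question was how many genes differed. Of 14235 genes tested, 342 (2.4%) differed at an adjusted p under 0.05, 182 of them higher (1.28%) and 160 lower (1.12%) at 9 months. The test throughout was edgeR's quasi-likelihood test with Benjamini-Hochberg adjustment over all genes tested, and the log2 fold change is that of 9 over 3 months with its standard error (SE). Replicates are separate numbered mice by the labels, and p-values measure the spread between these samples. At an unadjusted p under 0.05 there were 3027 of the 14235 genes, 1143 higher and 1884 lower. Unadjusted counts of gene lists below are to be read against these shares. Changes of 2-fold or more were seen for 55 of the higher and 27 of the lower genes. Direction was the same in each prep fitted alone for 100% of the called genes and for 41.8% of all tested genes, a comparison in which the calls used the same libraries. The levels of all 16 livers of 9 months lay above those of all 16 of 3 months for 6 genes (0.0421%), and for 0 genes (0.0%) did they all lie below. The 6 were Zfp979, Susd4 and Grm8, described below, and Dmrta1, Gas7 and 5033421B08Rik, named here because they were seen to be in this group.

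The 4 livers weighed mainly on the lower genes. For 111 of the 160 lower genes the highest 3-month level was in one of them, and for 57 of them (1139 of the 14235 genes tested) they were the 4 highest of the 32 libraries. For 26 of the 182 higher genes (665 of all tested) they were the 4 lowest. Without them, 191 genes were called, 132 higher and 59 lower, and 109 of the 182 higher and 35 of the 160 lower genes were still among the calls. This fit and that without the 6 libraries of lowest weight were added after seeing the data.

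**Figure D1:**
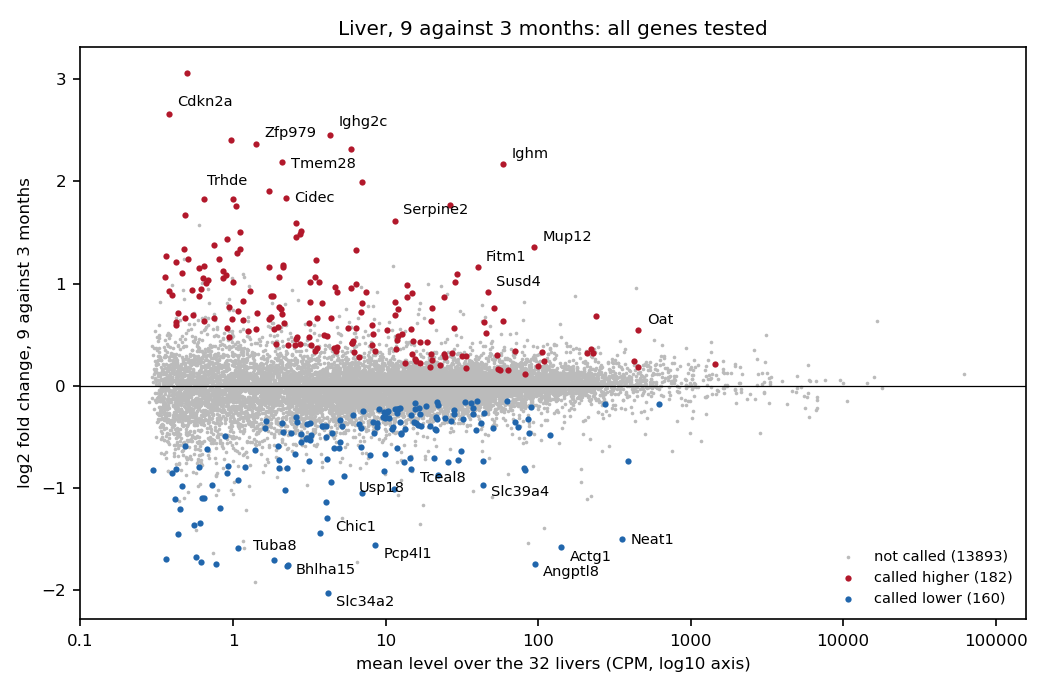
Log2 fold change of 9 against 3 months (vertical axis) against mean level over the 32 livers in CPM (horizontal axis, log10) for the 14235 genes tested, 1 point per gene. Red points are the 182 genes called higher, blue points the 160 called lower, and grey points the rest. Among labelled genes, Cdkn2a is highest, at 2.66, and Slc34a2 lowest, at -2.03.

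Immunoglobulin constant-region genes rose, with the highest median change of the gene lists examined. They encode the constant parts of antibodies, which B cells and plasma cells make. Of 11 constant-region and joining-chain genes tested, 7 rose and 0 fell, where 1.28% of all genes tested rose. All 11 had a positive log2 fold change (6580 of all 14235 genes), with a median of 1.32, against -0.01 over all genes tested. Ighm, the heavy chain of IgM (chr12:113418558-113422730, GRCm38), ran from 4.34 over a median of 20.8 to 47.8 CPM at 3 months and from 36.5 over 75.5 to 392 CPM at 9 months. In 14 of 16 livers of 9 months it was above every liver of 3 months, a log2 fold change of 2.17 ± 0.35 (adjusted p 0.000266). The 4 livers held the low end at 3 months, at 4.34 to 6.17 CPM against 12.5 CPM or more in the others, and without them the change was 1.79 (adjusted p 0.000727).

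The IgG heavy chains also rose. Ighg2c (chr12:113285325-113288932) went from 0.560 to 2.27 CPM at 3 months (median 1.12) to 1.61 to 24.3 CPM at 9 months (median 5.61), with 13 of 16 livers above the 3-month range and a log2 fold change of 2.46 ± 0.33 (adjusted p 1.11e-05). Ighg2b had medians of 1.65 and 6.75 CPM (2.32 ± 0.34, adjusted p 5.84e-05) and Ighg1 medians of 0.245 and 1.46 CPM (2.41 ± 0.42, adjusted p 0.00068). The light chain Igkc rose from a median of 10.2 to 30.0 CPM (range 5.93 to 27.8 and 12.3 to 197, 1.77 ± 0.34, adjusted p 0.00178). Replicate 9 of 9 months held the highest value of Ighm, Igkc, Ighg1, Ighg2b and Ighg2c, and each of these stayed called when any 1 library was left out.

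Jchain, which links antibody units into polymers, rose by 1.32 ± 0.31 (adjusted p 0.0133, medians 3.11 and 7.11 CPM), and the lambda light chain Iglc2 by 1.12 ± 0.26 (adjusted p 0.014). Without the 4 livers 5 of the 11 genes were called, and these 2 were not (1.24 and 0.88, adjusted p 0.0972 and 0.129), whereas 7 were called without the 6 libraries of lowest weight. The 4 other genes had values of 0.98 ± 0.35 for Iglc1, 0.76 ± 0.28 for Igha, 0.67 ± 0.25 for Iglc3 and 0.44 ± 0.22 for Ighd, none called. Of 247 variable, diversity and joining segments 4 passed the count filter and 0 were called (4 at an unadjusted p under 0.05, all higher). Of 16 markers of B and plasma cells tested, 0 rose and 1, Derl3, fell, a call that was lost without the 4 livers, while 14 had a positive value and the median was 0.32 (0.13 without the 4). At an unadjusted p under 0.05, 2 were higher and 1 was lower, and their summed level was 226 to 370 CPM at 3 months and 214 to 393 CPM at 9 months. Of these markers, the B cell genes Cd79a and Ms4a1 ranged over all 32 livers from 0.636 to 4.99 CPM and from 0.545 to 5.76 CPM. Both made up little of the sum, which is therefore no measure of B cell content. Of 18 T and NK cell genes 0 were called (0 at an unadjusted p under 0.05). Whether the number of antibody-making cells or their RNA differed was not tested.

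**Figure D2:**
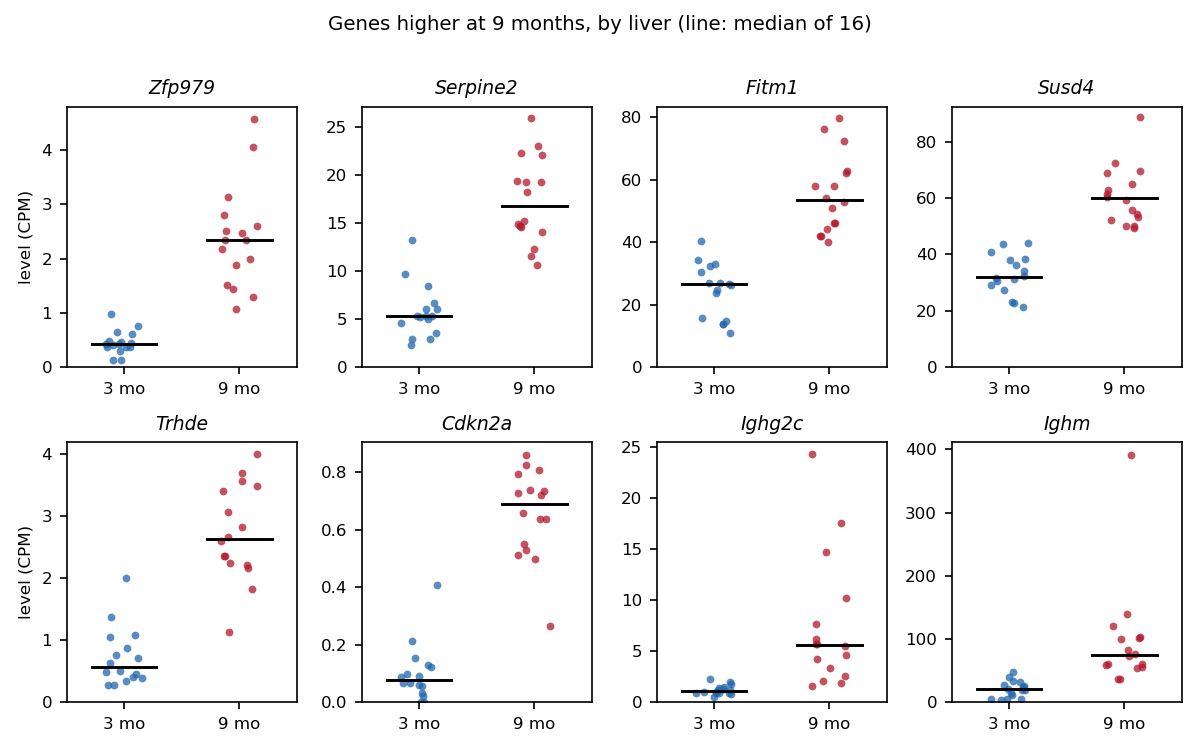
Level in CPM (vertical axes, each from 0) of 8 genes higher at 9 months, 1 point per liver, 16 at 3 months (blue) and 16 at 9 months (red), with the median as a line. All 9-month points of Zfp979 and Susd4 lie above all 3-month points, and Ighm and Ighg2c spread widely at 9 months, Ighm up to 392 CPM.

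Among the inhibitors of cyclin-dependent kinases, which hold the cell cycle in check, 1 of 7 tested rose and 1 fell. Over all genes tested 1.28% rose and 1.12% fell. Cdkn2a (chr4:89274471-89294653), whose locus encodes p16INK4a and p19ARF, was at 0 to 0.407 CPM at 3 months (median 0.0787) and at 0.266 to 0.861 CPM at 9 months (median 0.689). All but 1 of the 16 livers of 9 months lay above the 3-month range. The log2 fold change was 2.66 ± 0.28 (adjusted p 2.24e-07). In 11 of 16 livers of 3 months it had 3 counts or fewer, so the size of the fold depends on the prior count of the fit, and counts per gene do not separate its 2 products. Cdkn2c, the p18 inhibitor, fell from a median of 4.77 to 3.33 CPM (-0.51 ± 0.09, adjusted p 0.00158), with 10 of 16 livers of 9 months below every liver of 3 months. The other inhibitors were not called, with Cdkn1a at -0.59 ± 0.29 (adjusted p 0.24) and Cdkn2b at 0.31 ± 0.24 (adjusted p 0.452).

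Of 44 cell cycle and replication genes tested, 0 rose and 1 fell. This was Ccnd2, cyclin D2, from a median of 14.1 to 10.9 CPM (-0.35 ± 0.06, adjusted p 0.000483), with 8 of 16 livers of 9 months below all of 3 months. The list's median of -0.27 was 0.04 without 3-month replicate 12, -0.53 without the 4 livers and -0.11 without the 6 libraries of lowest weight, so neither its size nor its sign held over these fits. Among 19 targets of p53, 1 rose, the ectodysplasin receptor gene Eda2r, from a median of 0.748 to 1.20 CPM (0.65 ± 0.16, adjusted p 0.0256). It was at 0.59 and not called without the 4 livers (adjusted p 0.0943), and at 0.61 and not called without 9-month replicate 9 (adjusted p 0.0504). Of 13 secreted factors linked to senescence 0 were called (2 at an unadjusted p under 0.05, 1 in each direction).

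Genes of fat storage were next. Of 21 lipid droplet genes and lipases tested, 2 rose and 0 fell, where 1.28% of all genes tested rose and 1.12% fell. The median of the list was 0.06. Fitm1 (chr14:55575617-55576954), an endoplasmic reticulum membrane protein that partitions fat into droplets, was at 11.1 to 40.2 CPM at 3 months (median 26.5) and at 40.0 to 79.8 CPM at 9 months (median 53.6). The ranges met at 40 CPM, with 15 of 16 livers of 9 months above all of 3 months, and the log2 fold change was 1.16 ± 0.15 (adjusted p 8.92e-06). The 4 livers held the lower end at 3 months (11.1 to 14.8 CPM), and without them the change was 0.95 (adjusted p 1.26e-05). Cidec, which enlarges droplets by fusing them, had medians of 0.828 and 1.60 CPM and a log2 fold change of 1.84 ± 0.41 (adjusted p 0.00981). Its size rested on 9-month replicate 13, at 27.5 CPM, without which it was 1.14 and still called. With the 4 livers left out it was 1.80 and not called (adjusted p 0.0663).

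Mogat1, a monoacylglycerol acyltransferase that was singled out after its values were seen, rose from a median of 0.490 to 1.13 CPM (1.44 ± 0.25, adjusted p 0.000709). The 4 livers held its lowest values of the 32 (0.158 to 0.225 CPM), and without them the change was 1.15 (adjusted p 0.00699). Pparg, the nuclear receptor best known from fat cells and also chosen after its values were seen, was at 8.27 ± 2.88 CPM at 3 months and at 12.1 ± 2.05 CPM at 9 months (SD, n = 16 each, log2 fold change 0.54 ± 0.15, adjusted p 0.0378). Of 25 fatty acid synthesis genes 0 rose and 1 fell, Mid1ip1 (an activator of acetyl-CoA carboxylase), and of 38 genes of fatty acid oxidation and of 26 of cholesterol synthesis 0 each were called (5 and 4 at an unadjusted p under 0.05, all higher). The medians of the oxidation and cholesterol lists, 0.08 and 0.25, became 0.002 and -0.01 without the 4 livers.

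Several hepatocyte enzymes rose by less. Oat, ornithine aminotransferase of the pericentral zone, was at 271 to 528 CPM at 3 months (median 349) and at 400 to 659 CPM at 9 months (median 529), with overlapping ranges and a log2 fold change of 0.55 ± 0.10 (adjusted p 0.000878). Cyp2a5, a pericentral cytochrome P450 that oxidises coumarin and nicotine, went from a median of 169 to 319 CPM (0.69 ± 0.17, adjusted p 0.0201; 0.50 without the 4 livers, adjusted p 0.148). These were the 2 of 22 pericentral genes called, and 0 of 18 periportal genes were called (2 at an unadjusted p under 0.05). Among 43 cytochromes P450 of families 1 to 3, Cyp2a5 was the only call.

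Conjugating enzymes held 3 calls, all higher, where 1.28% of all genes tested were called higher. The sulfotransferases Sult1a1 (0.36 ± 0.09, adjusted p 0.0199) and Sult5a1 (0.60 ± 0.14, adjusted p 0.0173) were the 2 calls among 24 glucuronosyl- and sulfotransferases, and Gstk1 (0.20 ± 0.05, adjusted p 0.0432) the 1 call among 22 glutathione transferases, of which 20 had a positive value (median 0.23). None of these 3 was called without the 4 livers (0.24, 0.48 and 0.17, adjusted p 0.0943, 0.137 and 0.249). In that fit 1 other glutathione transferase was called higher, and the median of the list was 0.10. Asns, asparagine synthetase and a target of the amino acid sensor pathway of ATF4, rose from a median of 3.08 to 5.65 CPM (0.97 ± 0.22, adjusted p 0.00914). It was 1 of 17 genes of that pathway to rise, and Atf3 fell (-1.02 ± 0.29, adjusted p 0.049), a call lost in 20 of 32 fits that left out 1 library and without the 4 livers (-0.72, adjusted p 0.463).

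Major urinary proteins are pheromone carriers that male liver makes in bulk. Of 20 tested, 1 rose, Mup12 (chr4:60737383-60741326), from 15.4 to 130 CPM at 3 months (median 39.1) to 60.7 to 229 CPM at 9 months (median 131). The ranges overlapped, with 8 of 16 livers of 9 months above all of 3 months (1.36 ± 0.23, adjusted p 0.000455). Members of this family are nearly identical and may share reads, so values of single members are uncertain. The other 19 were not called, and the median of the 20 was 0.19. Of 12 genes driven by growth hormone pulses 0 were called (3 at an unadjusted p under 0.05), and 2 were called higher without the 4 livers. Of 11 genes that the pulses repress, Ntrk2, a neurotrophin receptor, rose from a median of 0.361 to 0.848 CPM (1.15 ± 0.20, adjusted p 0.00068), with 13 of 16 livers of 9 months above all of 3 months, and Cyp39a1, an oxysterol hydroxylase, fell (-0.73 ± 0.20, adjusted p 0.0455), the latter only with the 4 livers in the fit (-0.16 without them, adjusted p 0.551).

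Several genes of receptors, signalling proteins and secreted proteins rose. Susd4 (chr1:182763860-182896591), a membrane protein with complement control domains, went from 21.5 to 44.1 CPM at 3 months (median 31.9) to 49.4 to 89.0 CPM at 9 months (median 60.0), without overlap (0.91 ± 0.09, adjusted p 1.72e-07). Grm8, a metabotropic glutamate receptor, also did not overlap, at 1.46 to 3.84 and 3.93 to 6.88 CPM (1.07 ± 0.11, adjusted p 2.24e-07). Serpine2 (chr1:79794197-79861180), a secreted inhibitor of thrombin and other serine proteases, ran from 2.30 to 13.2 CPM at 3 months (median 5.33) and from 10.6 to 25.9 CPM at 9 months (median 16.7), a log2 fold change of 1.62 ± 0.17 (adjusted p 2.93e-07). Its overlap came from 1 liver of 3 months, replicate 16, at 13.2 CPM. The 4 livers held 6.65 to 13.2 CPM against at most 6.09 CPM in the other 3-month livers, and without them the change was 1.94 (adjusted p 1.36e-09).

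Gnai1 (chr5:18265135-18360355), an inhibitory G protein alpha subunit, rose from a median of 1.35 to 4.09 CPM (range 0.680 to 2.63 and 2.18 to 6.62), with 14 of 16 livers of 9 months above all of 3 months (1.48 ± 0.14, adjusted p 4.87e-08). Trhde, a membrane peptidase that cleaves thyrotropin-releasing hormone, rose from a median of 0.573 to 2.64 CPM (1.91 ± 0.22, adjusted p 1.1e-06). Chrm3, a muscarinic acetylcholine receptor, rose from a median of 0.922 to 4.04 CPM (1.60 ± 0.28, adjusted p 0.000587). These 3 were low at both ages, and each was above the 3-month range in 10 to 14 of the 16 livers of 9 months.

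Unc13b, a vesicle priming factor, rose from a median of 9.09 to 17.2 CPM (0.87 ± 0.09, adjusted p 3.17e-07). Osbpl3, an oxysterol-binding protein, rose from 1.37 to 3.85 CPM (1.51 ± 0.25, adjusted p 0.000262), Hsf2bp, known from meiotic recombination, from 0.416 to 1.67 CPM (1.76 ± 0.21, adjusted p 1.87e-06), and Tmem28 from 0.600 to 3.38 CPM (2.20 ± 0.27, adjusted p 3.01e-06). All 4 stayed called without the 4 livers, where Tmem28 was at 2.78 (adjusted p 3.95e-09).

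Efemp1, a fibulin of the extracellular matrix, rose by 0.35 ± 0.07 (adjusted p 0.00414; 0.24 without the 4 livers, which were its lowest, adjusted p 0.0176). It was the 1 call of 43 matrix genes other than collagens, of which 1 was higher and 3 were lower without the 4 livers. Of 29 collagen genes, Col25a1 rose (1.05 ± 0.23, adjusted p 0.00612) and Col4a5, a basement membrane chain, fell (-0.63 ± 0.17, adjusted p 0.0417; -0.86 without the 4 livers, which were the lowest at 3 months, adjusted p 0.00032). In the fit that left out the 4 livers 0 collagens were higher (Col25a1 0.89, adjusted p 0.0612) and 3 were lower. The chemokine Cxcl14 rose by 0.62 ± 0.16 (adjusted p 0.0284), 1 of 16 chemokines tested, and was not called without the 4 livers (0.45, adjusted p 0.17).

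A row of zinc finger genes on chromosome 4 was noticed after values were seen. Zfp979 (chr4:147611937-147642513) was at 0.126 to 0.988 CPM at 3 months (median 0.428) and at 1.06 to 4.57 CPM at 9 months (median 2.34), without overlap, a log2 fold change of 2.37 ± 0.22 (adjusted p 4.87e-08). Its neighbours Zfp992 (1.02 ± 0.14, adjusted p 1.75e-05), Zfp982 (0.91 ± 0.13, adjusted p 1.74e-05) and Zfp993 (0.89 ± 0.18, adjusted p 0.0036) rose too, of which Zfp993 was not called without the 6 libraries of lowest weight (0.77, adjusted p 0.0615). From the start of Zfp992 to the end of Zfp979, chr4:146449023-147642513, 6 genes were tested and 4 were called, all higher, where 1.28% of all genes tested were. Both ends were set at called genes, so this count cannot show a change of the region. The other two, Zfp991 (log2 fold change 0.09, adjusted p 0.725) and Gm13161 (0.52, adjusted p 0.161), were not. Genes of such clusters are similar in sequence and how reads shared between them were counted is not given in the sources used here.

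The lower genes fell into those that did and those that did not rest on the 4 livers. Tceal8 (chrX:136168984-136172342), of the transcription elongation factor A-like family, was at 13.4 to 24.9 CPM at 3 months (median 18.3) and at 6.64 to 17.0 CPM at 9 months (median 10.4), with 15 of 16 livers of 9 months below all of 3 months (-0.82 ± 0.10, adjusted p 1.68e-06). Tent5a, a noncanonical poly(A) polymerase, fell from a median of 16.5 to 9.75 CPM (-0.75 ± 0.10, adjusted p 5.79e-06), with 13 of 16 below the 3-month range. Slc39a4 (chr15:76612383-76617384), the zinc importer ZIP4, was at 34.1 to 77.7 CPM at 3 months (median 57.9) and at 12.4 to 55.0 CPM at 9 months (median 27.5), with 11 of 16 below the 3-month range (-0.98 ± 0.16, adjusted p 0.000186). Without the 4 livers these 3 stood at -0.81, -0.76 and -1.03, all called.

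Cdh1, E-cadherin of the junctions between epithelial cells, fell from a median of 30.6 to 19.4 CPM (range 19.4 to 50.0 and 12.4 to 26.7, -0.75 ± 0.12, adjusted p 0.000159). Lyve1, a hyaluronan receptor of sinusoidal and lymphatic endothelium, fell from a median of 16.4 to 10.4 CPM (-0.71 ± 0.12, adjusted p 0.00047), with 12 of 16 livers of 9 months below all of 3 months. It was the 1 call among 20 sinusoidal endothelial genes, whose median was -0.02. Lepr, the leptin receptor, chosen after its values were seen, fell from a median of 3.44 to 2.26 CPM (-0.55 ± 0.10, adjusted p 0.00128). Chic1 fell from a median of 5.40 to 2.43 CPM (-1.30 ± 0.18, adjusted p 3.08e-05), and by 0.91 on the log2 scale without the 4 livers (adjusted p 0.000157).

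**Figure D3:**
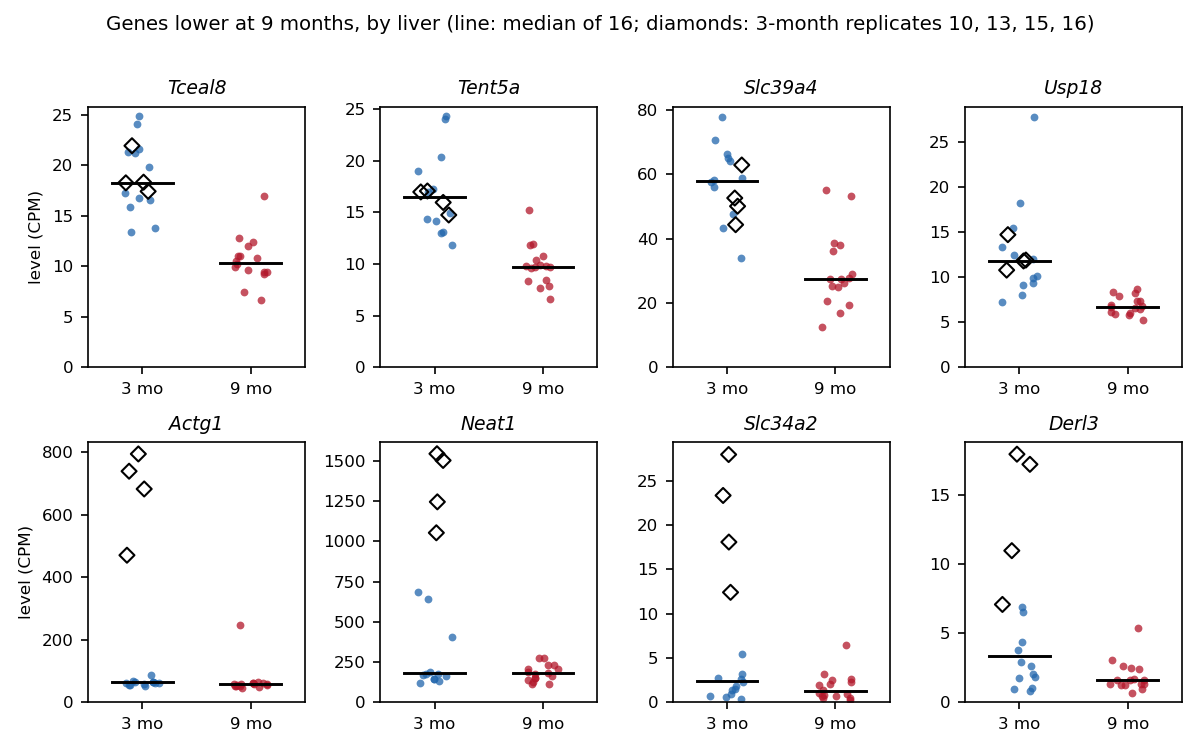
Level in CPM (vertical axes, each from 0) of 8 genes lower at 9 months, 1 point per liver, 16 at 3 months (blue) and 16 at 9 months (red), with the median as a line and diamonds for 3-month replicates 10, 13, 15 and 16. The diamonds lie among the other 3-month livers for Tceal8, Tent5a, Slc39a4 and Usp18, and are the 4 highest values for Actg1, Neat1, Slc34a2 and Derl3, where Actg1 is at 471 to 795 CPM in them.

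Among interferon-stimulated genes, the calls were all lower. They are switched on by type I interferon through the factor complex ISGF3, which binds a promoter element with repeated GAAA units. Of 36 tested, 0 rose and 6 fell, where 1.12% of all genes tested fell. In the list 35 had a negative log2 fold change (7655 of all 14235 genes) and the median was -0.36, against -0.01 over all genes tested. At an unadjusted p under 0.05, 27 were lower and 1 was higher, against 1884 and 1143 of all 14235 genes. The promoter stretches of the called genes with a RefSeq window are shown for 2 that hold this element, as the 250 bases before the start of transcription (RefSeq, GRCm38.p6), written in the direction of transcription with matches to GAAANNGAAA on either strand in capitals.
Isg15 (chr4:156200819-156201068, minus strand): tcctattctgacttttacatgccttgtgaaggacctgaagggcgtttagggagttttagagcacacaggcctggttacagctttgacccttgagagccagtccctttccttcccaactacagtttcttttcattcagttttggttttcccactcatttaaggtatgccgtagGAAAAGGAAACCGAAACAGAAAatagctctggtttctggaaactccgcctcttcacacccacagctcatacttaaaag
Ifit1 (chr19:34640639-34640888, plus strand): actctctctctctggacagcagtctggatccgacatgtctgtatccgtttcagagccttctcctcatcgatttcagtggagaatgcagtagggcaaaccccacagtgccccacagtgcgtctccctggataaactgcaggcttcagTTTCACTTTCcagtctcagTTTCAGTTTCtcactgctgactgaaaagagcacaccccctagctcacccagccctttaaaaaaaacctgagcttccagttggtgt
Matches that overlap are joined in 1 run, as in Isg15, and both matches in Ifit1 read on the opposite strand. This pattern was found in the windows of 11 of 24 genes of the list that have one (45.8%), and in 3.46% of 27025 genes and 3.35% of 10618 tested genes. Windows of Ddx58 and Samd9l, also called, held no match, and Usp18 and Dhx58 had no window in the table. A match is a run of letters and not a measured binding site.

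Usp18 (chr6:121245906-121270917), which removes the ubiquitin-like ISG15 from proteins and damps interferon signalling, was at 7.19 to 27.8 CPM at 3 months (median 11.9) and at 5.21 to 8.73 CPM at 9 months (median 6.71). In 10 of 16 livers of 9 months it was below every 3-month liver (-0.84 ± 0.13, adjusted p 0.000147). Isg15, the modifier itself, went from 6.59 to 31.1 CPM (median 11.2) to 5.33 to 10.1 CPM (median 7.26), with overlap (-0.67 ± 0.14, adjusted p 0.00481). Ifit1, which binds foreign RNA ends, had medians of 12.0 and 9.05 CPM (-0.61 ± 0.16, adjusted p 0.0311). The RNA sensors Ddx58 (RIG-I) and Dhx58 fell by 0.28 ± 0.07 (adjusted p 0.0199) and 0.35 ± 0.10 (adjusted p 0.0404), and Samd9l by 0.43 ± 0.12 on the log2 scale (adjusted p 0.041). Without the 4 livers these 3 were at -0.25, -0.38 and -0.45 and not called (adjusted p 0.0699, 0.0701 and 0.0704). Dhx58 and Samd9l are named beyond the 4 of the naming rule, chosen after their values were seen.

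One liver weighed on the size. The highest 3-month level was in replicate 12 for 33 of the 36 genes. This liver set the upper ends given for Usp18 and Isg15, and held the highest level of Ifit1, at 39.8 CPM. Without it the median of the list was -0.24 and 6 genes were again called lower. Over all fits that left out 1 library the count of lower genes ran from 3 (without 9-month replicate 1, 2 or 15) to 14 (without 3-month replicate 3), with 10 without 3-month replicate 9 and 11 without 9-month replicate 13. It was 8 without the 4 livers. Among 20 GTPases induced by interferon gamma, 0 were called (5 at an unadjusted p under 0.05, all lower) and the median of -0.37 was -0.05 without replicate 12, -0.52 without the 4 livers and -0.16 without the 6 libraries of lowest weight. Class I and class II histocompatibility genes had 0 calls of 20 and 0 of 10 (3 and 0 at an unadjusted p under 0.05), and 1 class I gene was called lower without the 4 livers.

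Many of the large falls rested on the 4 livers. Actg1 was at 51.5 to 795 CPM at 3 months with a median of 65.4, and at 47.1 to 246 CPM at 9 months with a median of 59.2. The 4 livers held 471 to 795 CPM and the other 3-month livers at most 88.1 CPM. Its log2 fold change of -1.58 ± 0.43 (adjusted p 0.0413) became 0.05 without them (adjusted p 0.98). Neat1, the long noncoding RNA that scaffolds paraspeckles, had medians of 182 and 180 CPM at the 2 ages, with 1053 to 1543 CPM in the 4 livers and at most 682 CPM in the other 3-month livers (-1.50 ± 0.37, adjusted p 0.0199; -0.45 without the 4, adjusted p 0.675).

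The same held for Slc34a2, a sodium-phosphate cotransporter, at 12.4 to 28.0 CPM in the 4 and at most 5.50 CPM in the rest of the group (-2.03 ± 0.56, adjusted p 0.0468; -0.34 without, adjusted p 0.905). Angptl8, a secreted regulator of lipoprotein lipase that feeding induces, was at 359 to 465 CPM in the 4 and at most 152 CPM in the rest (-1.74 ± 0.44, adjusted p 0.0267; -0.44 without, adjusted p 0.783). Rad51c, of homologous recombination, was at 3.23 to 6.86 CPM in the 4 and at most 1.63 CPM in the rest (-1.59 ± 0.39, adjusted p 0.0225; -0.36 without, adjusted p 0.705). Each of these 5 genes was called only with the 4 livers present.

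Of the 9 lower genes named next, 2 were still called without the 4 livers. Tuba8, an alpha-tubulin, then stood at -1.02 (adjusted p 0.0187, -1.71 ± 0.31 with them) and Pcp4l1 at -0.49 (adjusted p 0.0246, -1.56 ± 0.34 with them). Bhlha15, the secretory cell factor MIST1 (-1.76 ± 0.41, adjusted p 0.0134), Atp2b2, a plasma membrane calcium pump (-1.75 ± 0.40, adjusted p 0.012), Ces4a, a carboxylesterase (-1.14 ± 0.28, adjusted p 0.0225), Ppp1r3b, a glycogen-targeting phosphatase subunit (-0.73 ± 0.16, adjusted p 0.00685) and the imprinted Peg3 (-1.02 ± 0.22, adjusted p 0.00847) had values of -0.89, -0.94, -0.42, -0.48 and -0.44 without them, none called. Mid1ip1 was at 186 to 257 CPM in the 4 and at most 121 CPM in the rest (-0.83 ± 0.23, adjusted p 0.0443; -0.23 without, adjusted p 0.705). The histone gene Hist2h3c2, 1 of 9 histone genes tested and the 1 called, was at 1.58 to 3.58 CPM in the 4 and at most 0.978 CPM in the rest (-1.73 ± 0.45, adjusted p 0.0313), and without the 4 it did not pass the count filter.

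The same 4 livers stood out in genes of endoplasmic reticulum chaperones. These genes respond to unfolded proteins through factors such as ATF6 and XBP1, and many carry the element ERSE. Of 30 tested, 0 rose and 1 fell (Derl3), while 29 had a negative value, 18 were lower at an unadjusted p under 0.05, and the median was -0.26. Over all 14235 genes tested, 160 fell, 7655 had a negative value and 1884 were lower unadjusted. Without the 4 livers the median of the list was -0.08 and 0 of its genes were called. Promoter windows of Derl3, the call, and of 2 genes singled out after their values were seen are shown as above, with matches to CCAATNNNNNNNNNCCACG on either strand in capitals.
Derl3 (chr10:75893148-75893397, plus strand): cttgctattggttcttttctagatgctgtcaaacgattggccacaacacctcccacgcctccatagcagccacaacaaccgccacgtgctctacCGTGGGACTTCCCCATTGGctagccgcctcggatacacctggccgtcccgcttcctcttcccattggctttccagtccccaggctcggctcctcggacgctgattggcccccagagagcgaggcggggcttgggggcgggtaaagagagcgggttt
Creld2 (chr15:88819396-88819645, plus strand): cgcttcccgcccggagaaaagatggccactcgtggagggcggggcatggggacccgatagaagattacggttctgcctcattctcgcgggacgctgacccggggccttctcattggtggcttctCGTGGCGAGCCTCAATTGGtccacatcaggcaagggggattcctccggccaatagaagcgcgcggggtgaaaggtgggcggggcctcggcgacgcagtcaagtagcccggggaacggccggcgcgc
Hspa5 (chr2:34771840-34772089, plus strand): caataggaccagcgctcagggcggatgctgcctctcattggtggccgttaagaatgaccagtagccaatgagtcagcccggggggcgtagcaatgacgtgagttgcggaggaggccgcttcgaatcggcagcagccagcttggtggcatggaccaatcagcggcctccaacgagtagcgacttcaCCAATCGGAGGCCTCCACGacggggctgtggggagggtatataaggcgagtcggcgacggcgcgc
The pattern was found in 9 of the 24 genes of this list with a window (37.5%), in 0.13% of 27025 genes and in 0.17% of 10618 tested genes. The matches of Derl3 and Creld2 read on the strand opposite to transcription.

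Derl3, which helps to clear misfolded proteins, was at 0.792 to 17.9 CPM at 3 months (median 3.37) and at 0.698 to 5.39 CPM at 9 months (median 1.63). The 4 livers held 7.07 to 17.9 CPM and the other 3-month livers at most 6.90 CPM. The log2 fold change was -1.45 ± 0.39 (adjusted p 0.0416), and -0.59 without the 4 (adjusted p 0.638). Creld2, a disulfide-related chaperone, was at 113 to 192 CPM in the 4 and at most 84.0 CPM in the rest (-1.09 ± 0.33, adjusted p 0.0663; -0.34 without, adjusted p 0.792). Hspa5, the main chaperone BiP, was at 2073 to 2961 CPM in the 4, at most 1559 CPM in the rest and at 584 to 1413 CPM at 9 months (-0.55 ± 0.20, adjusted p 0.129; -0.10 without, adjusted p 0.942). Of 18 heat shock genes 0 were called (10 at an unadjusted p under 0.05, all lower), and their median of -0.31 became -0.06 without the 4 livers.

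**Figure D4:**
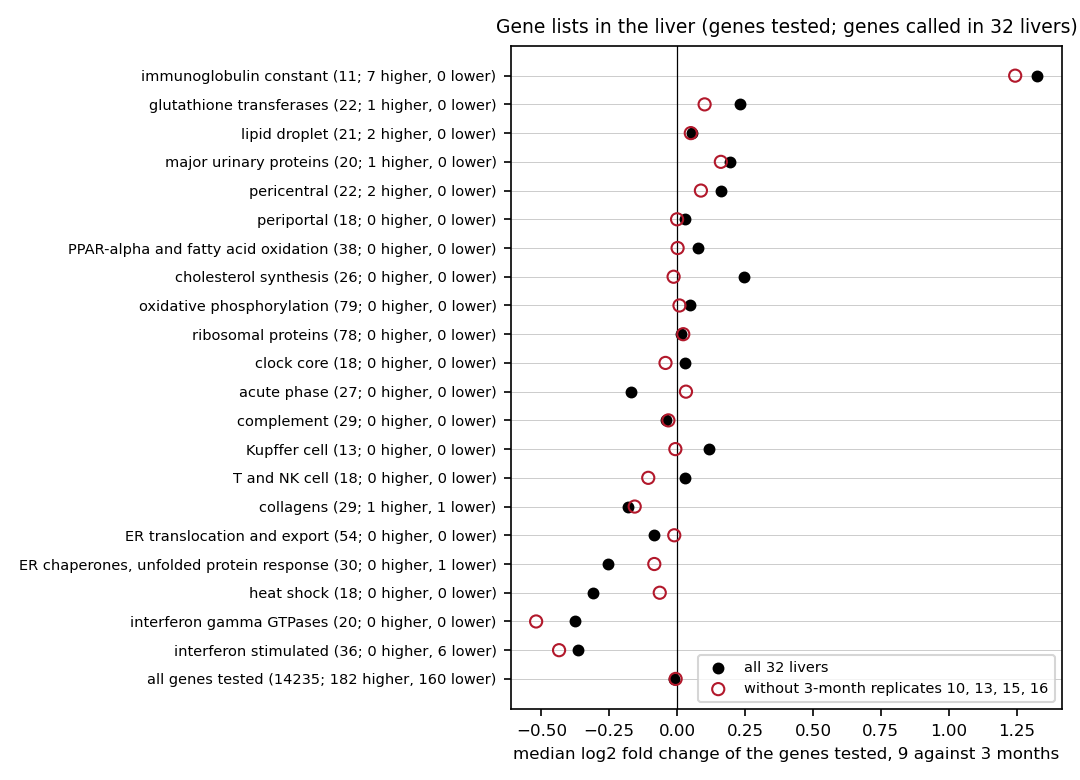
Median log2 fold change of 9 against 3 months (horizontal axis) for 21 gene lists and all genes tested, with all 32 livers (black) and without 3-month replicates 10, 13, 15 and 16 (red circles); the labels give the number of genes tested and called. The immunoglobulin constant list stands at 1.32 and 1.24, the interferon-stimulated list at -0.36 and -0.43, and the lists of chaperones and heat shock genes lie closer to 0 without the 4 livers, at -0.08 and -0.06.

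Many groups had no call in the fit of all 32 livers. They were the nuclear subunits of oxidative phosphorylation (0 of 79, median 0.05; 3 at an unadjusted p under 0.05), ribosomal proteins (0 of 78, 0.02; 0 unadjusted), proteasome subunits (0 of 47, -0.01; 1 unadjusted), complement (0 of 29, -0.04; 6 unadjusted), acute phase proteins (0 of 27, -0.17; 2 unadjusted), bile acid genes (0 of 25, 0.10; 7 unadjusted), glucose metabolism (0 of 22, -0.01; 0 unadjusted), the growth hormone and IGF axis (0 of 26, 0.06; 3 unadjusted) and Kupffer cell markers (0 of 13, 0.12; 2 unadjusted). Without the 4 livers, 1 complement gene and 1 bile acid gene were called higher, and the others of these lists again had 0 calls. The medians of all 9 lists then lay between -0.03 and 0.03, with that of the acute phase proteins changing sign to 0.03 (0.17 without the 6 libraries of lowest weight) and that of the Kupffer cell markers to -0.01 (0.09 without the 6). Of 18 core clock genes 0 were called (2 unadjusted), with Per2 at -0.87 ± 0.27 (adjusted p 0.0691) and Dbp at 0.65 ± 0.82 (adjusted p 0.68). The clock component, the main axis of spread of these genes between livers, ran from -3.30 to 6.57 at 3 months and from -3.16 to 5.56 at 9 months. With it as a covariate 235 genes were called, against 342 without it.

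Later ages were set beside this interval in 1 fit of all 83 livers, in which levels are scaled over all ages. Among the 182 genes higher at 9 months, 38 (20.9%) rose and 39 (21.4%) fell between 15 and 24 months, where 21.6% of 15579 genes tested rose and 14.4% fell. From there to 28 months 11 of them (6.04%) rose and 38 (20.9%) fell, against 6.18% and 9.13% of all genes. Of the 160 lower genes, 40 (25%) rose and 14 (8.75%) fell between 15 and 24 months, and at the last step, to 28 months, 10 (6.25%) rose and 15 (9.38%) fell. These steps share no library with the 3- and 9-month groups, but all ages shared 1 estimate of the spread.

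Several genes that were higher at 9 months fell later. The median of Mup12 was 40.2, 135, 128, 11.2 and 0.879 CPM at 3, 9, 15, 24 and 28 months, with log2 fold changes of -2.51 ± 0.53 from 15 to 24 months (adjusted p 0.000157) and -3.15 ± 0.56 from 24 to 28 months (adjusted p 2.92e-05). Trhde had medians of 0.586, 2.72, 3.63, 1.73 and 0.230 CPM (-1.21 ± 0.34 and -1.99 ± 0.36 over the same steps, adjusted p 0.00382 and 4.62e-05). Susd4 had medians of 32.5, 61.6, 58.6, 38.7 and 15.0 CPM (-0.56 ± 0.20 and -1.05 ± 0.20, adjusted p 0.0244 and 0.000102), and Fitm1 27.3, 55.0, 56.6, 32.2 and 15.2 CPM (-0.80 ± 0.20 and -0.71 ± 0.20, adjusted p 0.00112 and 0.00697). Tmem28 (0.617 CPM at 3, 3.46 at 9 and 0.463 CPM at 28 months) fell over both steps as well, and so did Serpine2, whose median of 8.00 CPM at 28 months was below the 17.2 CPM of 9 months and above the 5.49 CPM of 3 months.

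Others went on rising or stayed up. Cdkn2a had medians of 0.0807, 0.708, 0.942, 1.10 and 1.43 CPM, rising from 15 to 24 months (0.87 ± 0.31, adjusted p 0.0227). Hsf2bp had medians of 0.426, 1.72, 2.99, 5.65 and 4.81 CPM and rose over that step by 0.93 ± 0.17 (adjusted p 1.51e-05), and Ntrk2 by 1.59 ± 0.36 (adjusted p 0.000375), to a median of 6.46 CPM at 24 months. Ighm had medians of 21.5, 77.4, 133, 152 and 102 CPM, and Igkc rose from 15 to 24 months (0.99 ± 0.36, adjusted p 0.0248).

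Of the lower genes, Cdh1 went on falling, with medians of 31.3, 20.1, 12.5, 4.69 and 3.50 CPM and a log2 fold change of -0.95 ± 0.24 from 15 to 24 months (adjusted p 0.00139). Both Usp18 and Isg15 rose at that step, with Usp18 at medians of 12.1, 6.93, 6.36, 9.96 and 12.5 CPM (0.63 ± 0.16, adjusted p 0.00147) and Isg15 at 11.5, 7.47, 7.70, 11.4 and 9.79 CPM (0.69 ± 0.21, adjusted p 0.00835). Tceal8 (0.45 ± 0.13, adjusted p 0.00383) and Tent5a (0.31 ± 0.11, adjusted p 0.028) also rose there. Slc39a4 stayed low, at 28.3, 19.2, 15.3 and 18.2 CPM from 9 to 28 months.

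**Figure D5:**
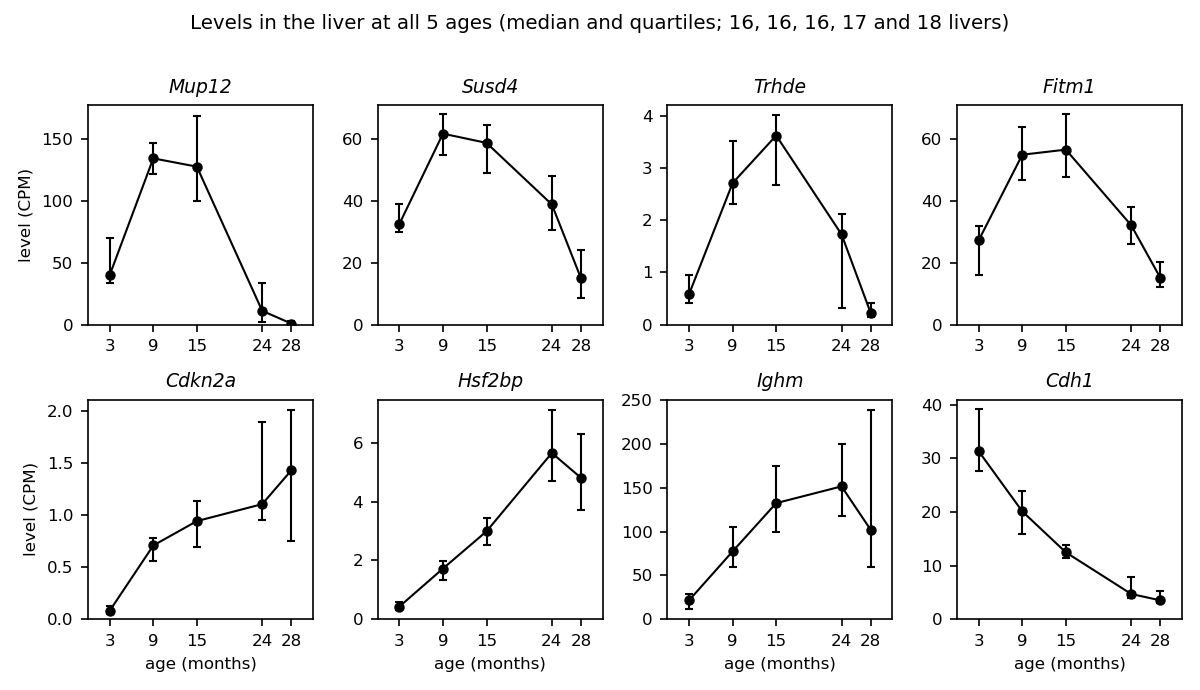
Median level in CPM (vertical axes, each from 0) with quartiles as bars against age in months for 8 genes in livers of 5 ages. Mup12, Susd4, Trhde and Fitm1 are high at 9 and 15 months and at or below their 3-month level at 28 months, whereas Cdkn2a is at 0.0807 CPM at 3 and 1.43 CPM at 28 months and Cdh1 at 31.3 and 3.50 CPM.

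The brains of the same ages (15 libraries at 3 and 16 at 9 months) were compared in the same way. In the brain 110 of 17832 genes (0.617%) were called, and 2 genes were called in both tissues, 0.585% of the liver calls and 1.82% of the brain calls. AI506816 was lower in both (-0.61 in the liver and -0.34 in the brain). Npnt, nephronectin of the basement membrane, was higher in the liver (1.01, adjusted p 0.00758) and lower in the brain (-0.46, adjusted p 0.0102). The change differed between the tissues, by the test of the tissue by age term, for 215 of 13011 genes tested in both (1.65%), in 123 of which the liver change was the higher. With each mouse as a block, since brain and liver libraries of 1 age and number came from 1 mouse, 106 genes differed, 79 of them with the higher change in the liver.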

How the data were processed

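Polyadenylated RNA of 32 livers was read as stranded paired-end libraries, per the labels' protocols. The authors deposited raw counts, whole numbers for 55471 Ensembl genes per library, with no scaling. Per the submitters' processing notes, cutadapt 2.8, HISAT2 2.1.0, SAMtools 1.9 and featureCounts of Subread 2.0.1 were used with GRCm38.p6 and mm10, without a stated order. The annotation release, the strand setting and the handling of reads that map to several places are not given in the sources used here, so reads of overlapping genes (such as Fitm1, Trhde, Hsf2bp, Usp18 and Sult1a1, which share exonic bases with another gene) and of near-identical genes (Mup, immunoglobulin and zinc finger families) may be shared between them. No value column was left unused (0).

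Libraries of 9 and 3 months were compared with edgeR 4.0.16 (R 4.3.3): genes kept by filterByExpr, TMM scaling, age and prep as terms, a quasi-likelihood test, Benjamini-Hochberg adjustment over all 14235 genes tested and a threshold of 0.05. Levels are CPM of the TMM-scaled library. The standard error is the fold change divided by the root of the F statistic. Sample quality weights came from limma 3.58.1. In counts simulated for 14235 genes, 93 of 100 genes changed by 1 and 84 of 100 changed by 0.5 on the log2 scale were called, and 3 of 14035 unchanged genes were. The simulated counts were independent between genes, with no prep effect and no livers that stood apart. These rates need not hold for the measured libraries. Coordinates and overlaps came from GENCODE M21 on GRCm38, which matched 55230 of the identifiers.

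The members, the gene lists and the tests were chosen with earlier results of these data known. Among called genes with a mean of 1 CPM or more, the same direction in each prep and no clone name, the 12 highest and 12 lowest fold changes and the 6 smallest p-values in each direction were named. Without the minimum of 1 CPM, up to 4 called members per list, all CDK inhibitors, immunoglobulin constant genes and clock genes tested, and up to 3 of the most abundant members of a list with no call could be named. Others are said to have been chosen after their values were seen. Alternatives were other scalings, filters and tests (among them DESeq2 1.42.0), single preps, blocks and left-out libraries.

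Lists named in the text were also checked for markers of tissue carried over at dissection. Skeletal muscle markers summed to at most 1.62 CPM, mesothelial markers to at most 8.57 CPM and adipose markers to at most 7.89 CPM in any library. No 2 libraries of a group were near-identical: the lowest mean squared residual between any pair, which is about 1 for sampling noise alone, was 17.0.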

Additional observations from a re-analysis of the deposited data

Results flagged for a closer look

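The change from 3 to 9 months differed between liver and brain for 215 genes by the test of the tissue by age term (edgeR, Benjamini-Hochberg adjustment). The genes named here were chosen for their change in the liver, so a difference from the brain was favoured by the choice. Values are the log2 change in the liver minus that in the brain.

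Among antibody genes the difference was 3.16 for Ighg2c, 2.90 for Igkc and 2.13 for Ighm. Zfp979 stood at 2.38, Zfp992 at 1.19 and Zfp982 at 0.92. Among receptors, signalling and secreted proteins it was 2.21 for Tmem28, 1.9 for Trhde, 1.56 for Chrm3, 1.51 for Serpine2, 1.44 for Gnai1, 1.12 for Ntrk2, 1.07 for Grm8 and 0.90 for Susd4. Others with the higher change in the liver were Hsf2bp (1.59), Osbpl3 (1.52), Asns (0.94), Col25a1 (0.92), Unc13b (0.88) and Oat (0.52).

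The liver change was the lower one for Chic1 (-1.32), Tceal8 (-0.89) and Tent5a (-0.70). Among the lower genes given above with and without 3-month replicates 10, 13, 15 and 16, it was -1.74 for Atp2b2, -1.72 for Tuba8, -1.60 for Neat1, -1.58 for Actg1, -1.56 for Pcp4l1, -1.54 for Hist2h3c2, -1.46 for Rad51c and -0.98 for Peg3. With the mouse as a block, 10 of the 31 genes were no longer called: Igkc (adjusted p 0.243), Asns (0.0566), Col25a1 (0.0628), Atp2b2 (0.0757), Neat1 (0.183), Actg1 (0.357), Pcp4l1 (0.0917), Hist2h3c2 (0.195), Rad51c (0.198) and Peg3 (0.0805).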

How the results depend on the processing

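The main test gave 342 calls (182 higher, 160 lower). A fit of all 83 livers gave 731 calls (493 lower) and DESeq2 725 (311 higher, 414 lower). Prep 1 alone gave 17 (14 higher, 3 lower), prep 2 alone 14 (12 and 2) and prep 3 alone 0 (edgeR; 1856 at an unadjusted p under 0.05), with fewer libraries in each. The clock component as a covariate left 73 lower. Without 3-month replicates 10, 13, 15 and 16, 191 were called (59 lower), and without the 6 libraries of lowest weight 76 were lower, both settings added after seeing the data; Actg1 was the 1 named gene to turn, to 0.0541. The share of higher calls, 53.2%, was 32.6% with all livers, 42.9% with DESeq2, 63.1% of 385 with voom and quality weights and 62.7% of 381 without a count filter. RLE scaling gave 340 calls, a robust prior 327, a minimum of 1 CPM 263 and no prep term 380.

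Leaving out 1 library gave 229 to 582 calls, 151 to 293 higher and 78 to 337 lower, and 135 higher and 64 lower genes kept their call in all 32 such fits. The total was 529 without 3-month replicate 12 (293 higher), 546 without replicate 1 and 582 without replicate 3. Lower calls were 82, 102, 81 and 78 without 3-month replicates 10, 13, 15 and 16, were 313, 259, 337, 272 and 271 without replicates 1, 2, 3, 9 and 14, and were 106, 96, 99, 89 and 103 without 9-month replicates 2, 6, 9, 11 and 15. The cause was not tested.

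Same-numbered livers of the 2 ages share only a number: their deviations correlated at -0.22 to 0.18 (16 pairs, 5 over 0.1), and 0 libraries correlated best with their own number. With the replicate number as a block 226 genes were called, 70 lower. The mouse block took the difference between liver and brain from 215 to 106 genes (79 with the liver change higher, 27 lower).

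Over 68 named genes, fits without 1 library kept the side of the threshold in 1999 cases, lost the call in 171 and gained one in 6. In single preps 180 cases lost the call and 24 kept the side of the threshold. Genes near or below 1 CPM are limited by depth, Cdkn2a among them.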
